A study of Mus musculus with 2 samples.

Results

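The proteasome subunit genes were examined as a set in *Kdm5b* knockdown ES cells. Members were all gene symbols made of Psma, Psmb, Psmc, Psmd or Psme and a number, and 43 of the 21935 gene symbols in the RNA-Seq data met this rule. The RNA was from R1 cells, an embryonic stem (ES) cell line of the mouse that was maintained on irradiated embryonic fibroblasts and then differentiated for 72 h in low attachment dishes without LIF, a cytokine that keeps ES cells self-renewing. The shKdm5b ES cells carried a lentiviral short hairpin RNA (shRNA) against *Kdm5b*, a histone H3K4 demethylase, and the control shLuc ES cells carried an shRNA against luciferase. Both lines were R1 cells infected with a lentivirus. 1 library of polyadenylated RNA was sequenced from each, so a difference between the libraries has no replicate check, and the shRNA and the library cannot be told apart. In such bulk samples, fewer cells of a type and less RNA per cell cannot be told apart either.

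The proteasome is the protease that degrades most proteins tagged with ubiquitin. Its 20S core is a barrel of stacked rings, in which alpha subunits form the gated entrance and beta subunits line the chamber and carry the protease sites. The 19S regulator caps the barrel. Its ATPases unfold substrates and push them inside, while its other subunits bind ubiquitin chains and cut them off. In cells exposed to interferon, the 3 immunoproteasome subunits *Psmb8*, *Psmb9* and *Psmb10* replace the usual catalytic subunits, and the *Psme* activators can take the place of the 19S cap. Because the subunits assemble in fixed proportions, proteasome genes are known to be expressed together, and the transcription factor encoded by *Nfe2l1* drives them through antioxidant response elements when proteasome capacity is short.

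Levels are given as RPKM, the reads of a transcript per kilobase of its length and scaled to the depth of the library. The deposited library totals were 78172698 aligned reads for shLuc and 72702698 for shKdm5b, of which 67.9% and 66.3% lay on genes. Of the reads on genes, the 43 proteasome genes held 329318 (0.620%) in shLuc and 308663 (0.640%) in shKdm5b. The level of *Kdm5b* itself was 104 RPKM in shLuc and 3.01 RPKM in shKdm5b, or 2.88% of the control. All 10 ES cell markers examined were above 1 RPKM in both libraries, with a summed level of 3145 RPKM in shLuc and 3222 RPKM in shKdm5b. Single markers differed, since *Pou5f1* had 619 RPKM in shLuc and 182 RPKM in shKdm5b, *Esrrb* 80.5 RPKM and 41.2 RPKM, and *Dppa5a* 1096 RPKM and 1651 RPKM. The 10 fibroblast markers, listed with feeder cells in mind, summed to 8.39 RPKM in shLuc and 13.1 RPKM in shKdm5b. They differed in both directions. *Twist1* had 1.95 RPKM and 7.05 RPKM, whereas *Fbln2* had 1.05 RPKM and 0.381 RPKM and *Pdgfra* 0.508 RPKM and 0.113 RPKM. Which cells these reads came from was not tested.

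Promoter sequences are shown first for the genes with the largest difference in each direction, *Psmd14* and *Psmd13*, and for *Psmb9*, which is transcribed away from the antigen transporter gene *Tap1*. Each runs 5′ to 3′ on the gene's strand from 250 bases before to 50 bases after the RefSeq start in GRCm38.p6, and capitals mark matches on either strand to a CCAAT box (CCAAT), a GC box (GGGCGG) or an ETS site (CCGGAAG).
Psmd14, chr2:61711444-61711743, plus strand: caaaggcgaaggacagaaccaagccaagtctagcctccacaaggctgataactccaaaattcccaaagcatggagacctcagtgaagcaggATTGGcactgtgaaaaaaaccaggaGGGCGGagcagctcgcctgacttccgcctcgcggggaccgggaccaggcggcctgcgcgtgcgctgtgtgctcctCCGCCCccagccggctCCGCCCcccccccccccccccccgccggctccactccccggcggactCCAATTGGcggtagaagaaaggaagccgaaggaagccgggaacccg
Psmd13, chr7:140882144-140882443, plus strand: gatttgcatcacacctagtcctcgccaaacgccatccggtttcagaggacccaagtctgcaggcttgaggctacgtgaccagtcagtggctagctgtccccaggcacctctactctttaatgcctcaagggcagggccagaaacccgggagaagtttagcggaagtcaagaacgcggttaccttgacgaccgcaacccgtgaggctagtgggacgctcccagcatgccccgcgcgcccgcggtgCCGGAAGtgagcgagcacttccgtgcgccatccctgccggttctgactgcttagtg
Psmb9, chr17:34187281-34187580, minus strand: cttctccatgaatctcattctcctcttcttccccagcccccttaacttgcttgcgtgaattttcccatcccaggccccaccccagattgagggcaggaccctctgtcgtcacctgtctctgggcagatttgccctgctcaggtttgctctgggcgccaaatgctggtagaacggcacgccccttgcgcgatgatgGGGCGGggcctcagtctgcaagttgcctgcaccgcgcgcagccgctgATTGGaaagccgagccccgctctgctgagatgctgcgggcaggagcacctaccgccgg
The *Psmd14* window held CCAAT and GC boxes and no ETS site, and the *Psmd13* window held 1 ETS site and none of the other motifs. The start of *Tap1* on the opposite strand lies inside the *Psmb9* window, 223 bases from the start of *Psmb9*.

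Promoter windows were on hand for 36 of the 43 genes, 39 windows in all, since 3 genes had 2 annotated starts. The core of the antioxidant response element (TGACNNNGC) was found on either strand in 6 of these 39 windows (15.4%), and in 12.4% of 32851 windows of all genes. These matches are shown with 10 bases on each side where the window allows, on the strand of the gene, with the match in capitals. A capital run beginning with GC is a match on the opposite strand.
Psmb5, chr14:54618024-54618052, minus strand: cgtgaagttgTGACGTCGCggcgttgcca
Psmb6, chr11:70525338-70525366, plus strand: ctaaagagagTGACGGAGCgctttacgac
Psmc6, chr14:45329587-45329615, plus strand: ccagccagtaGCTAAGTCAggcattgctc
Psmd9, chr5:123228149-123228177, plus strand: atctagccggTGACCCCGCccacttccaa
Psmd12, chr11:107479278-107479299, plus strand: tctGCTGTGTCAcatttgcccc
Psme4, chr11:30771758-30771786, plus strand: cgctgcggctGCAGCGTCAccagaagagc
In *Psmb6* and *Psme4* the match began 9 and 7 bases before the annotated start, and in *Psmc6* and *Psmd12* it began 227 and 247 bases before it. The ETS site was found in 13 of the 39 windows (33.3%) against 8.86% of all windows, the GC box in 23 (58.97%) against 35.7%, and the CCAAT box in 14 (35.9%) against 37.4%. Such matches describe the letters of these windows. They share no direction of expression, since the 6 genes with the antioxidant response element core had log2 ratios of shKdm5b to shLuc between -0.49 (*Psme4*) and 0.83 (*Psmc6*).

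Of the 43 genes, 42 had an RPKM above 1 in at least 1 library. The exception was *Psmb11*, the beta subunit of thymic epithelial cells, with 3 reads in shLuc and 1 read in shKdm5b, at or below the limit of 3 reads. The 20S and 19S genes were highly expressed. In the shLuc library the 14 genes of the 20S core lay between 31.9 and 126 RPKM and the 17 genes of the 19S regulator between 51.1 and 129 RPKM, against a median of 8.97 RPKM over the 11804 genes above 1 RPKM. *Psma3*, the lowest of these, still exceeded 83.2% of the 11804 genes in the shLuc library, and *Psmd13* exceeded 90.6%. The plot of levels shows this plateau and the genes below it, which were the immunoproteasome subunits, 2 assembly chaperones (*Psmd9* and *Psmd10*), *Psme2* and *Psma8*.

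**Figure D1:**
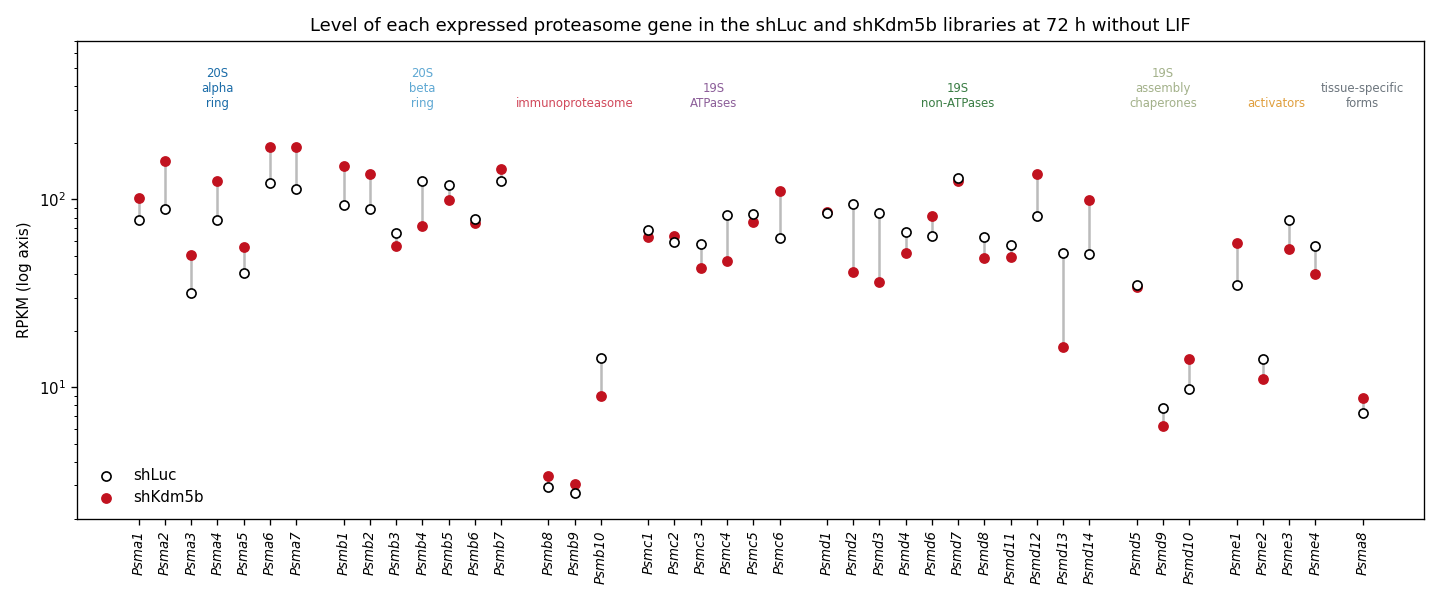
RPKM on a log axis of the 42 expressed proteasome genes in the shLuc library (open circles) and the shKdm5b library (red circles), with 1 library per condition, no error bars, and a grey line joining both values of a gene. All 7 genes of the alpha ring were higher in shKdm5b, *Psmd2*, *Psmd3* and *Psmd13* were lower, and *Psmb8* and *Psmb9* stayed near 3 RPKM in both libraries.

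Each gene's ratio of shKdm5b to shLuc is given as a difference in log2(RPKM + 0.1). Of the 42 expressed genes, 21 had a ratio above 0 and 21 below 0, with a median of 0.00 (range -1.66 to 0.95), while the median of all 11804 expressed genes was -0.21. The median log2 ratio of genes above 1 RPKM in both libraries was -0.17, and removing this shift turned the sign of *Psmb6*, *Psmc1*, *Psmc5*, *Psmd5* and *Psmd7* from below to above 0. With a threshold of 1.5-fold, 11 proteasome genes were higher in shKdm5b and 6 were lower. Of all genes tested, 16.3% were higher and 32.0% were lower past the same threshold. Thus the proteasome genes did not shift as a block. With the deposited RPKM all genes of the alpha ring were higher. The beta ring, the 19S regulator, the immunoproteasome subunits and the activators each held genes of both directions, as the plot of log2 ratios shows.

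**Figure D2:**
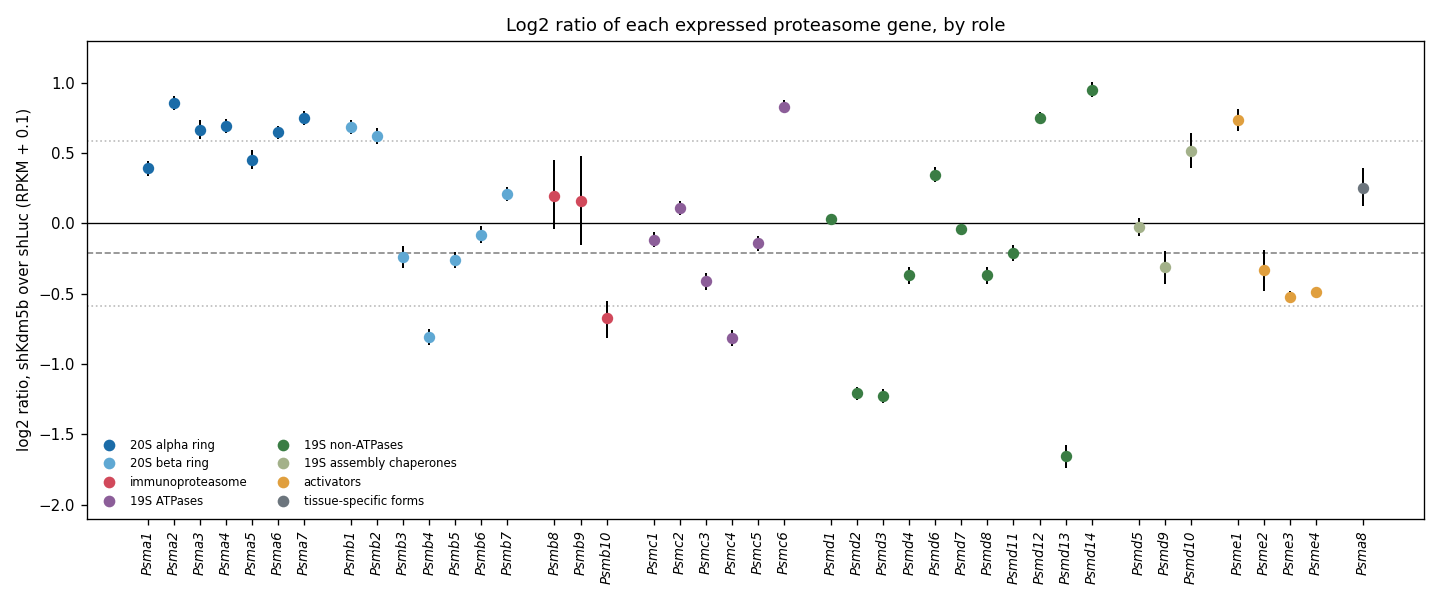
Log2 ratio of shKdm5b to shLuc for the 42 expressed proteasome genes, coloured by role, with vertical lines for the 95% counting interval, which covers counting error only. Dotted lines mark 1.5-fold in either direction, the solid line marks 0, and the dashed line marks the median of all genes (-0.21). The 7 alpha ring genes sit between 0.39 and 0.86, and the 19S non-ATPases spread from -1.66 to 0.95.

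The alpha ring, which forms the gate of the core, was higher as a whole in the shKdm5b library. *Psma2* had 88.4 RPKM in shLuc and 160 RPKM in shKdm5b, a log2 ratio of 0.86 (95% counting interval 0.81 to 0.90). *Psma7* had 113 RPKM and 191 RPKM, a log2 ratio of 0.75 (0.71 to 0.79). *Psma6*, the most abundant member of the ring, had 122 RPKM and 191 RPKM, a log2 ratio of 0.65 (0.61 to 0.69). The rest of the ring followed in the same direction. *Psma4* had 77.7 RPKM in shLuc and 126 RPKM in shKdm5b, and *Psma3* had 31.9 RPKM and 50.6 RPKM. *Psma1* had 77.7 RPKM and 102 RPKM, and *Psma5* had 40.6 RPKM and 55.6 RPKM, both within 1.5-fold. The RPKM values of the ring summed to 551 in shLuc and 875 in shKdm5b, and 5 of its 7 genes were past 1.5-fold, all higher. The median log2 ratio of the ring was 0.66. It was 0.51 with the relation to GC content taken out, and 0.09 with the relation to transcript length taken out as well. There *Psma1* (-0.19), *Psma2* (-0.20) and *Psma3* (-0.01) were below 0. With the GC content of the coding transcript closest in length to the entry, *Psma2* (0.014) and *Psma3* (0.14) were above 0 and *Psma1* (-0.20) was below.

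The beta ring was mixed. *Psmb1* (93.2 RPKM in shLuc and 150 RPKM in shKdm5b) and *Psmb2* (89.2 RPKM and 137 RPKM), which are structural subunits, were higher, with log2 ratios of 0.69 and 0.62. *Psmb4*, also a structural subunit, had 126 RPKM and 71.8 RPKM, a log2 ratio of -0.81 (-0.86 to -0.76), which is 1.75-fold lower. Within the shLuc library the ratio of *Psmb2* to *Psmb4* was 0.711 (95% counting interval 0.688 to 0.734), and within the shKdm5b library it was 1.91 (1.84 to 1.98). The order of these structural subunits was thus the opposite in the 2 libraries in the deposited RPKM. With the relation to GC content taken out, the log2 ratios were 0.89 for *Psmb2* and -0.44 for *Psmb4*. With the relation to length taken out as well, they were 0.28 and -0.96. The catalytic subunits differed little. *Psmb5*, which carries the chymotrypsin-like site, had 119 RPKM and 99.4 RPKM. *Psmb6*, with the caspase-like site, had 79.1 RPKM and 74.8 RPKM, and *Psmb7*, with the trypsin-like site, had 125 RPKM and 145 RPKM. All 3 were within 1.5-fold, with log2 ratios of -0.26, -0.08 and 0.21, the value of *Psmb6* turning to 0.09 when the libraries were scaled to the same median. *Psmb3*, a structural subunit, had 66.5 RPKM and 56.4 RPKM. The RPKM values of the beta ring summed to 698 in shLuc and 734 in shKdm5b.

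The immunoproteasome subunits were low beside the subunits they replace. *Psmb8* had 2.93 RPKM in shLuc (280 reads) and 3.37 RPKM in shKdm5b (300 reads), and the log2 ratio was 0.20 (-0.04 to 0.44). *Psmb9* had 2.75 RPKM (173 reads) and 3.07 RPKM (180 reads), and the log2 ratio was 0.16 (-0.15 to 0.47). For both genes the counting interval includes 0, so no difference was detectable in the deposited RPKM at this depth. With the relation to GC content taken out, *Psmb8* (0.77) and *Psmb9* (0.70) were past 1.5-fold higher. With the relation to length taken out as well, they were at 0.44 and 0.07, within 1.5-fold. *Psmb10* had 14.4 RPKM and 8.97 RPKM, a log2 ratio of -0.68 (-0.81 to -0.56). It was the only immunoproteasome subunit past 1.5-fold with the deposited RPKM. This call was lost when the libraries were scaled to the same median (-0.51). It was also lost with the relation to GC content taken out (-0.04) and with the relation to length taken out as well (-0.35).

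Set against its constitutive counterpart, each immunoproteasome subunit was a small fraction. *Psmb5* was 40.7 times the level of *Psmb8* in shLuc (36.1 to 45.98) and 29.5 times in shKdm5b (26.2 to 33.2). *Psmb6* was 28.8 times the level of *Psmb9* in shLuc (24.8 to 33.7) and 24.4 times in shKdm5b (20.99 to 28.4). *Psmb7* was 8.71 times the level of *Psmb10* in shLuc (8.24 to 9.21) and 16.1 times in shKdm5b (15.0 to 17.3). The counting intervals do not overlap between the libraries for the pairs of *Psmb8* and *Psmb10*, which differed in opposite directions. They overlap for the pair of *Psmb9*. Leukocytes carry immunoproteasomes, and of 9 leukocyte markers listed in the data 3 were above 1 RPKM in shLuc and 2 in shKdm5b. The 9 markers summed to 11.29 RPKM and 11.02 RPKM, *Ptprc* had 0 reads in shLuc and 6 reads in shKdm5b, and *Lyz2* had 1 read and 0 reads. Most of the sum came from *Coro1a*, with 588 reads in shLuc and 114 reads in shKdm5b, and *Laptm5*, with 671 reads and 1381 reads, which differed in opposite directions. The part of such cells in the level of *Psmb10* was not tested. Of the 50-base windows of the annotated *Psmb9* transcript, 12.5% also occur in *Tap1* transcripts. That transcript has 1352 bases and the counted entry has 806, so the shared windows may lie outside the counted part.

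The 6 ATPases of the 19S regulator form 1 ring but differed in direction. *Psmc6* had 62.0 RPKM in shLuc and 110 RPKM in shKdm5b, a log2 ratio of 0.83 (0.79 to 0.87). *Psmc4* had 82.4 RPKM and 46.8 RPKM, a log2 ratio of -0.81 (-0.87 to -0.77). The ratio of *Psmc6* to *Psmc4* was 0.752 in shLuc (0.730 to 0.776) and 2.36 in shKdm5b (2.28 to 2.44). The rank of these ring partners was therefore reversed between the libraries in the deposited RPKM. With the relation to GC content taken out, the log2 ratios were 0.15 for *Psmc6* and -0.36 for *Psmc4*, both within 1.5-fold. With the relation to length taken out as well, they were -0.01 and -0.59. The other 4 ATPases were within 1.5-fold. *Psmc3* had 57.6 RPKM and 43.2 RPKM, and *Psmc2* had 59.6 RPKM and 64.2 RPKM. *Psmc1* had 68.5 RPKM and 63.2 RPKM, and *Psmc5* had 83.5 RPKM and 75.8 RPKM.

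The widest spread was among the 11 non-ATPase subunits of the 19S regulator, with an SD of 0.82 in log2 ratio, against 0.16 among the 7 alpha subunits and 0.84 over all genes. *Psmd13*, a subunit of the lid, had 51.9 RPKM in shLuc (6346 reads) and 16.4 RPKM in shKdm5b (1866 reads). Its log2 ratio was -1.66 (-1.74 to -1.59), or 3.16-fold lower, the largest difference of any proteasome gene. *Psmd3*, also in the lid, had 84.5 RPKM and 36.1 RPKM, a log2 ratio of -1.22 (-1.27 to -1.18). *Psmd2*, the scaffold of the base that docks ubiquitin receptors, had 94.6 RPKM and 40.9 RPKM, a log2 ratio of -1.21 (-1.25 to -1.17). In contrast, *Psmd14*, the deubiquitinase of the lid that removes ubiquitin chains, had 51.1 RPKM and 98.7 RPKM, a log2 ratio of 0.95 (0.91 to 0.996). *Psmd12*, a further lid subunit, had 81.5 RPKM and 137 RPKM, a log2 ratio of 0.75 (0.72 to 0.78).

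Genes of 1 lid thus lay at both ends of the distribution. *Psmd14* and *Psmd13* stood at nearly the same level in shLuc, with a ratio of 0.983 (0.949 to 1.02), and at a ratio of 6.01 in shKdm5b (5.72 to 6.32). The remaining non-ATPases were within 1.5-fold. *Psmd6*, a lid subunit, had 63.8 RPKM and 81.1 RPKM. *Psmd4*, a ubiquitin receptor, had 67.2 RPKM and 52.1 RPKM, and *Psmd8*, in the lid, had 63.3 RPKM and 48.95 RPKM. *Psmd11*, also in the lid, had 57.4 RPKM and 49.6 RPKM. *Psmd1*, the larger scaffold of the base, and *Psmd7*, the partner of *Psmd14*, differed least, with 84.3 and 86.1 RPKM and with 129 and 126 RPKM. The log2 ratio of *Psmd7* was -0.04, and it was 0.12 under median scaling. Of the 50-base windows of the *Psmd13* transcript, 15.8% also occur in other annotated genes, among them *Sirt3*. For *Psmd2* the share was 26.4%, in the annotated genes *Gm5422* and *Gm7642*, and for *Psmd3*, *Psmd12* and *Psmc4* it was 0.

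The assembly chaperones of the 19S base, which are absent from the mature complex, had no member past 1.5-fold. *Psmd5* had 34.9 RPKM in shLuc and 34.3 RPKM in shKdm5b, *Psmd9* had 7.75 RPKM and 6.24 RPKM, and *Psmd10*, also known as gankyrin, had 9.83 RPKM and 14.1 RPKM. Under median scaling *Psmd10* passed 1.5-fold (log2 ratio 0.68), as did *Psma5* (0.62).

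The activators split within a pair. *Psme1* and *Psme2* encode the partner subunits of the interferon-inducible activator ring. *Psme1* had 35.1 RPKM in shLuc and 58.4 RPKM in shKdm5b, a log2 ratio of 0.73 (0.67 to 0.81). *Psme2* had 14.1 RPKM and 11.1 RPKM, a log2 ratio of -0.33 (-0.48 to -0.20). The ratio of *Psme1* to *Psme2* was 2.49 in shLuc (2.32 to 2.69) and 5.25 in shKdm5b (4.85 to 5.69). Of the 50-base windows of *Psme2*, 59.3% also occur in other annotated genes, so its level and the ratio of *Psme1* to it are uncertain. The paper's ChIP-Seq reads that matched several genomic sites were dropped, and it states no such setting for RNA-Seq. A second *Psme2* entry gave a log2 ratio of -0.13. *Psme3*, the nuclear activator, had 77.7 RPKM and 54.1 RPKM, and *Psme4*, the single-chain activator known from spermatogenesis and DNA repair, had 56.2 RPKM and 40.1 RPKM. Both were lower and within 1.5-fold, with log2 ratios of -0.52 and -0.49. *Psma8*, the testis form that replaces *Psma7*, had 7.30 RPKM and 8.72 RPKM, so *Psma7* was 15.5 times its level in shLuc (14.5 to 16.6) and 21.9 times in shKdm5b (20.5 to 23.3).

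The counts of *Psma5*, *Psmb3* and *Psmb5* are also uncertain, since 55.4%, 55.8% and 57.1% of their 50-base windows occur in other annotated genes. Their log2 ratios were within 1.5-fold (0.45, -0.24 and -0.26). The share was 31.5% for *Psma4*, 28.1% for *Psmb7* (with *Nek6*), 22.0% for *Psma3*, 18.9% for *Psmd11* and 17.6% for *Psmc1*. Of these, *Psma3* and *Psma4* were past 1.5-fold higher. The annotated *Psma3* transcript has 2846 bases and the counted entry has 1418.

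The log2 ratio of a gene followed the GC content of its transcript, among proteasome genes as among all genes. Across the 42 expressed proteasome genes the Spearman correlation was -0.61, and across 11535 expressed genes it was -0.53. The points of such a correlation share both libraries and are not independent replicates. Of the 21 proteasome genes with the lower GC content (37.0% to 49.7%), 8 were past 1.5-fold higher and 0 were lower, while 26.2% of all genes in that range were higher and 12.4% were lower. Of the 21 with the higher GC content (49.8% to 58.3%), 3 were higher (*Psma7*, *Psmb2* and *Psme1*) and 6 were lower, while 7.60% of all genes in that range were higher and 45.2% were lower. Subunits of 1 complex differed in GC content as they did in log2 ratio. *Psmc6* had a GC content of 37.0% and *Psmc4* of 53.5%, and *Psmd14* had 43.2% and *Psmd13* 53.4%. Whether the relation to GC content arose in the cells or in the libraries was not tested.

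**Figure D3:**
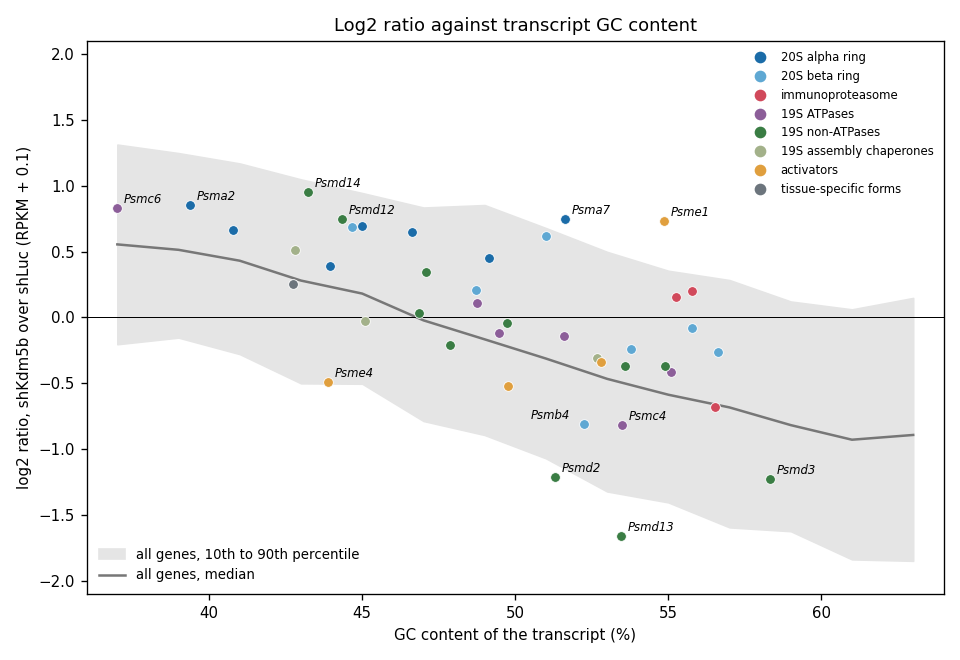
Log2 ratio of shKdm5b to shLuc against the GC content of the transcript for the 42 expressed proteasome genes (circles coloured by role), over the median (grey line) and the 10th to 90th percentile (grey band) of all expressed genes in bins of 2 percentage points. The proteasome genes descend with the grey line, *Psmd13* and *Psmd2* lie below the band, and *Psme1* and *Psma7* lie above it.

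When the median relation to GC content was taken out, 8 proteasome genes were past 1.5-fold higher and 3 were lower, against 18.5% of all genes higher and 18.5% lower. Of the 11 genes higher before this correction, 5 remained so, and 2 of the 6 lower genes remained. The remaining genes were *Psma6* (log2 ratio 0.60), *Psma7* (1.07), *Psmb2* (0.89), *Psmd14* (0.65) and *Psme1* (1.27), and *Psmd2* (-0.91) and *Psmd13* (-1.21). *Psma5*, *Psmb8* and *Psmb9* were newly past 1.5-fold higher and *Psme4* lower. When transcript length was also taken out, *Psme1* alone was higher (0.77), and *Psmb4* (-0.96), *Psmc4* (-0.59), *Psmd2* (-0.83) and *Psmd13* (-1.37) were lower. Over all genes, 1702 were higher and 1982 were lower with both corrections. *Psmd2* and *Psmd13* therefore kept their side of the threshold without a correction, with the GC correction and with both corrections, as did *Psme1*, which was within 1.5-fold when length alone was taken out (0.57). The alpha subunits are encoded by short transcripts, with a median length of 1096 bases against 2644 bases for all genes, and none of them was past 1.5-fold after both corrections. An exact test on the reads in edgeR, at an FDR below 0.001 and an assumed dispersion of 0.04 added to the thresholds, called 0.898% of all genes higher, 1.41% lower and 0 proteasome genes. The dispersion is an assumption, since 1 library per condition cannot give it.

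**Figure D4:**
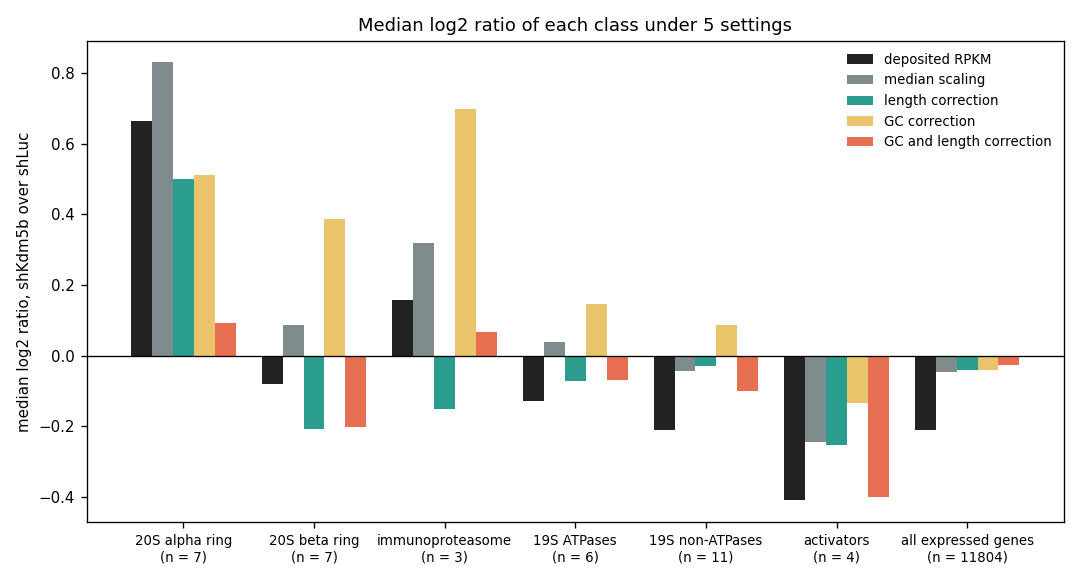
Median log2 ratio of each class of proteasome genes and of all expressed genes (n, the number of genes, under each class) for the deposited RPKM and for 4 other settings. The alpha ring had a median of 0.66 with the deposited RPKM and 0.09 after both corrections, the activators stayed below 0 in all 5 settings, and the beta ring, the immunoproteasome and the 19S classes lay on both sides of 0.

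Genes that build, regulate or feed the proteasome were then compared in 4 lists, against the shares of 16.3% higher and 32.0% lower over all genes. Of 13 expressed assembly and associated genes, 5 were past 1.5-fold higher and 2 were lower, with a median log2 ratio of 0.53, against -0.21 for all genes. With both corrections 2 were higher (*Uchl5* and *Akirin2*) and 1 was lower (*Psmg3*), and the median was 0.11. Over all genes, 1702 were then higher and 1982 lower, with a median of -0.03. *Pomp*, the maturation factor of the 20S core, had 63.9 RPKM in shLuc and 130 RPKM in shKdm5b, a log2 ratio of 1.02 (0.96 to 1.08). *Psmg3*, a chaperone of alpha ring assembly, had 13.0 RPKM and 6.23 RPKM, a log2 ratio of -1.05, whereas its partner *Psmg4* had 11.5 RPKM and 16.7 RPKM. The log2 ratio of *Psmg4* was 0.53, within 1.5-fold. *Shfm1*, a small lid subunit, had 73.0 RPKM and 185 RPKM, a log2 ratio of 1.34, which was -0.27 with both corrections. Both deubiquitinases that bind the 19S regulator reversibly were higher, *Uchl5* with 27.5 RPKM and 67.4 RPKM and *Usp14* with 32.9 RPKM and 53.5 RPKM, although the log2 ratio of *Usp14* fell from 0.70 to 0.28 with the GC correction. *Akirin2*, which brings proteasomes into the nucleus, had 51.1 RPKM and 92.3 RPKM, and *Ube3c*, a ubiquitin ligase of the proteasome, had 28.7 RPKM and 17.8 RPKM.

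Among 8 expressed genes for transcription factors of proteasome genes and their processing, 1 was past 1.5-fold higher and 3 were lower, near the shares over all genes (16.3% and 32.0%). *Nfe2l1* had 46.3 RPKM in shLuc and 17.7 RPKM in shKdm5b, a log2 ratio of -1.38 (-1.43 to -1.34). *Ddi2*, the protease that activates the *Nfe2l1* product, had 27.2 RPKM and 14.9 RPKM, and *Mafg*, a dimerization partner, had 17.8 RPKM and 9.87 RPKM. The log2 ratios of *Ddi2* and *Mafg* were -0.87 and -0.84. *Nfe2l2*, the factor of the oxidative stress response, had 30.6 RPKM and 57.4 RPKM, a log2 ratio of 0.91 (0.86 to 0.96). After the GC correction the log2 ratios were -0.91 for *Nfe2l1*, -0.79 for *Ddi2*, -0.30 for *Mafg* and 0.87 for *Nfe2l2*. With the GC content of the coding transcript closest in length to the entry, they were -0.91, -0.46, -0.03 and 0.86. *Ddi2* was then within 1.5-fold.

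Of 12 genes for ubiquitin and its delivery to the proteasome, 1 was past 1.5-fold higher and 4 were lower, near the shares over all genes (16.3% and 32.0%). *Rps27a*, which encodes ubiquitin fused to a ribosomal protein, had 126 RPKM in shLuc and 395 RPKM in shKdm5b. *Ubb*, the most abundant source of ubiquitin in the list, had 588 RPKM and 602 RPKM. The 4 lower genes were within 1.5-fold with the GC correction, at log2 ratios of -0.44 (*Uba1*), -0.19 (*Ubqln4*), -0.55 (*Vcp*) and -0.44 (*Nploc4*). *Uba1*, the main ubiquitin-activating enzyme, had 127 RPKM and 73.2 RPKM. *Ubqln4*, a shuttle factor, had 79.3 RPKM and 46.4 RPKM. *Vcp*, the ATPase that extracts substrates, had 84.6 RPKM and 50.8 RPKM, and its adaptor *Nploc4* had 24.5 RPKM and 13.2 RPKM.

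Of 21 antigen processing and interferon genes, 17 were expressed, 3 were past 1.5-fold higher and 5 were lower, near the shares over all genes (16.3% and 32.0%), with a median log2 ratio of -0.20. *Tap1*, which shares the divergent promoter of *Psmb9*, had 2.51 RPKM in shLuc and 2.77 RPKM in shKdm5b, near the level of *Psmb9* in both libraries. *B2m*, the light chain of MHC class I, had 10.9 RPKM and 21.9 RPKM, and the kinases *Jak1* and *Jak2* were higher, with log2 ratios of 0.78 and 0.75. *Irf1*, a transcription factor that induces immunoproteasome genes, had 32.6 RPKM and 13.8 RPKM, a log2 ratio of -1.23 (-1.31 to -1.17). The list held genes of both directions. *Irf8* had 1.74 RPKM and 0.681 RPKM, *Tapbp* 13.6 RPKM and 7.96 RPKM, *Tap2* 1.36 RPKM and 0.746 RPKM, and *Stat2* 6.41 RPKM and 4.23 RPKM. With the GC correction *Tapbp* (-0.12), *Tap2* (-0.18), *Stat2* (-0.25) and *Jak2* (0.52) were within 1.5-fold. *Irf1* (-0.82) and *Irf8* (-0.73) were still lower. Newly past 1.5-fold were *Tap1* (0.80), higher, and *Erap1* (-0.97), lower. With length taken out as well, *Tap1* was at 0.86. The interferon-stimulated genes *Isg15* and *Ifit3* were near absent, with 5 reads and 4 reads in shLuc and 4 reads and 0 reads in shKdm5b. Others of the list had more reads, *Ifit1* with 92 in shLuc and 40 in shKdm5b, and *Gbp2* with 226 and 252 (1.18 RPKM and 1.41 RPKM).

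**Figure D5:**
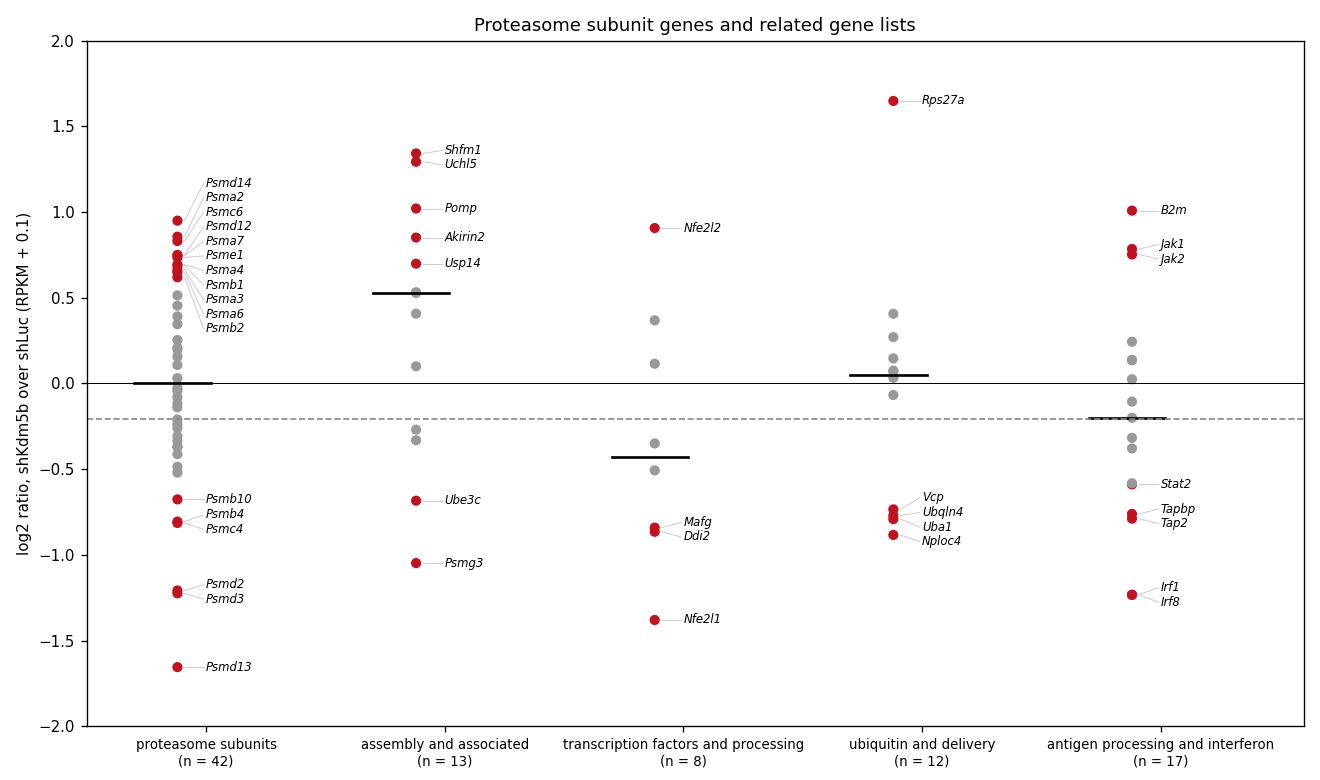
Log2 ratio of shKdm5b to shLuc for the 42 expressed proteasome subunit genes and the expressed genes of the 4 related lists (n under each). Red circles are genes past 1.5-fold with their names, grey circles are the others, black bars are medians, and the dashed line is the median of all genes (-0.21). *Rps27a* (1.65) is the highest and *Psmd13* (-1.66) the lowest gene plotted.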

How the data were processed

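Polyadenylated RNA was sequenced from shLuc and shKdm5b R1 ES cells, 1 library per condition. The authors aligned the reads to the mouse genome (mm8, Bowtie 0.12.7 and CASAVA 1.0 in the submitters' processing notes) and deposited, for 27405 RefSeq entries, a whole-number read count, the transcript length and an RPKM value normalized to length and depth. The aligned reads they deposited were used for depth only. Each spans 50 unbroken bases, so reads across exon junctions, 0 to 49.9% of the 50-base windows of a member transcript, are not in the counts, which affects levels between genes.

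Where a symbol had several entries, the one highest in mean RPKM was taken. Log2 ratios used log2(RPKM + 0.1), which understates differences of low genes, and a gene counted as higher or lower past 1.5-fold with an RPKM above 1 in at least 1 library. The design allows no test of the conditions. The 95% intervals are exact Clopper-Pearson intervals on the reads with no pseudocount. At these depths 3 reads per kilobase correspond to 0.0384 RPKM (shLuc) and 0.0413 RPKM (shKdm5b). As an alternative, the exact test of edgeR 4.0.16 in R 4.3.3 was run on the reads with TMM factors and an assumed dispersion of 0 or 0.04. The corrections removed the lowess trend (statsmodels 0.14.6, fraction 0.3) of the log2 ratio with GC content in GENCODE M21 (97.1% of symbols matched by RefSeq accession) and with transcript length. For 29 of the 43 members the matched transcript was within 10% of the entry's length. The steps were tested on simulated data. Promoters came from RefSeq on GRCm38.p6, another build than the reads.

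All members were described, and of the related lists those past 1.5-fold, plus partners and paralogs named for contrast after their values were seen. 2 listed genes are not reported here. The members and lists were chosen with earlier results of these data known.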

Additional observations from a re-analysis of the deposited data

How the results depend on the processing

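No paired analysis was possible because shLuc and shKdm5b have 1 library each, so no replicate could be left out either. The medians of the proteasome classes (0.00 for all expressed members, 0.54 for the 20S core, -0.14 for the 19S regulator, 0.16 for the immunoproteasome subunits and -0.41 for the activators) and the counts of 11 higher and 6 lower genes stayed within counting error with pseudocounts of 1 and 0.01 and with the entries of a symbol summed. Under median scaling the medians were 0.17, 0.70, 0.026 and -0.24 for all members, the 20S core, the 19S regulator and the activators, and under 75th percentile scaling 0.073, 0.61, -0.069 and -0.34. With the GC correction they were 0.18, 0.43, 0.13 and -0.14, and 0.70 for the immunoproteasome subunits, and 3 genes were lower (2119 over all genes). With the length correction they were 0.066, 0.41, -0.031 and -0.25, and -0.15 for the immunoproteasome subunits, and 6 genes were higher (2497 over all genes). With the GC and length correction they were -0.081 for all members and 0.0032 for the 20S core, and 1 gene was higher (1702 over all genes). *Psma2* was then at -0.20, *Psma3* at -0.013, *Psmc6* at -0.0088, *Shfm1* at -0.27 and *B2m* at -0.016. Past 2-fold, 0 proteasome genes were higher and 3 lower, and the share over all genes past 2-fold is not given here. The edgeR exact test added at a dispersion of 0 left 11 and 6, and at 0.04 it left 0 and 0. Why the corrections moved these values was not tested.

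The GC content of the coding transcript closest in length to the entry was chosen as a further alternative after seeing the data. The GC correction then gave 0.16, 0.48, 0.13, 0.81 and -0.13 for all members, the 20S core, the 19S regulator, the immunoproteasome subunits and the activators, and 3 lower genes (2110 over all genes). The GC and length correction gave -0.051, 0.030 and -0.093 for the first 3 and 1 higher gene (1679 over all genes), with *Psmb1* at -0.0050, *Psmc6* at -0.025, *Shfm1* at -0.27 and *B2m* at -0.017. *Psma2* and *Psma3* were then above 0, at 0.014 and 0.14. Depth limits *Psmb8*, *Psmb9* and *Psmb11*, whose reads give the widest intervals of the set.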
